A study of Mus musculus with 6 samples.

Results

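The nuclear end of the canonical Wnt pathway was examined in hair follicle bulge stem cells (SCs) with and without integrin-linked kinase (ILK). The set holds 10 genes of the 43274 in the table. They are the 4 Tcf/Lef transcription factors Lef1, Tcf7, Tcf7l1 and Tcf7l2 and their co-activator Ctnnb1 (β-catenin). With them stand the constitutive scaffold gene Axin1 and the feedback genes Axin2, Nkd1, Rnf43 and Znrf3. The comparison of the genotypes addresses which signalling genes differ in bulge SCs once ILK is lost. The genes were chosen by name, for their place in the pathway, and 10 of 10 were found by symbol. Bulge SCs were sorted by flow cytometry, as CD34+ cells with high α6 integrin, from the epidermis of mice at postnatal day 21, a stage at which hair follicles normally rest. The control group (3 libraries) carried 1 floxed and 1 intact Ilk allele with a Cre transgene under the keratin 5 promoter, and its genotype label is ILK +/-. The ILK-K5 group (3 libraries) carried floxed alleles only with the same transgene, and its label is ILK -/-. Both groups therefore carried K5-Cre, which acts in the basal keratinocytes of epidermis and hair follicle, and controls were littermates on a mixed C57Bl6-129/Sv background. Nothing in the labels ties a library to its own animal, so p-values measure the spread between these samples only.

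Canonical Wnt signalling turns on the fate of β-catenin. Without a Wnt ligand, a destruction complex built on the scaffold Axin marks β-catenin for degradation; with one, β-catenin accumulates, enters the nucleus and binds Tcf/Lef factors on the DNA. Axin2, Nkd1, Rnf43 and Znrf3 are transcribed in response in many tissues and then dampen the pathway, Axin2 in the destruction complex, Nkd1 at Dishevelled, and the membrane E3 ligases Rnf43 and Znrf3 by removing Frizzled receptors. In the hair follicle, Tcf7l1 (Tcf3) is known as the repressive Tcf factor of resting bulge SCs and Lef1 as the activating factor of the germ and hair matrix.

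The 4 Tcf/Lef genes descend from a common ancestor and share the DNA-binding HMG box, so that their reads might be mistaken for each other. The end of the HMG box and the basic stretch after it follow for each gene, as 120 coding bases read 5′ to 3′ from GENCODE M21 transcripts on GRCm38, the stretch of this length in which Lef1 resembles the other 3 genes most. Capitals mark the 84 positions (70%) with the same base in all 4 genes.
Lef1: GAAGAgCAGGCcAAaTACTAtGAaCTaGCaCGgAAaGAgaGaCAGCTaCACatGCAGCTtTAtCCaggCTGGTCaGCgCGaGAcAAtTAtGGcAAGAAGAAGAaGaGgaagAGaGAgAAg
Tcf7: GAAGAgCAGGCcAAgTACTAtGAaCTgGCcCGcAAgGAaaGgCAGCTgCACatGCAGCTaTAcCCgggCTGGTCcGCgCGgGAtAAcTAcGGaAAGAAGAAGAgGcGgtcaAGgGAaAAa
Tcf7l1: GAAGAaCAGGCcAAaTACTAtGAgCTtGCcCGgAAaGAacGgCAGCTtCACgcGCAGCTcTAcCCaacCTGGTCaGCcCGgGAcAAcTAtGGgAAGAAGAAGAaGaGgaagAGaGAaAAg
Tcf7l2: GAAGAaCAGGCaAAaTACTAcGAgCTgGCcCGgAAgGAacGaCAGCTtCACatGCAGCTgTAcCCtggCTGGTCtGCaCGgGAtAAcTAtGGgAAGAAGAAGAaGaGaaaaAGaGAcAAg

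Each window was read across 2 exons. It lies between positions chr3:131200313-131204285 for Lef1 on the plus strand (exons 9 and 10 of 12), chr11:52256277-52256829 for Tcf7 on the minus strand (exons 8 and 9 of 10), chr6:72630002-72631101 for Tcf7l1 on the minus strand (exons 11 and 12 of 13) and chr19:55919529-55923925 for Tcf7l2 on the plus strand (exons 10 and 11 of 14). Pairwise identity in the window ran from 78.3% between Tcf7 and Tcf7l1 to 85.8% between Tcf7l1 and Tcf7l2, and Lef1 was nearest to Tcf7l1 (84.2%). Over the whole transcripts, the longest identical run between any pair of these 4 genes was 24 bases, between Tcf7l1 and Tcf7l2. The longest run was 21 bases for Axin1 and Axin2 and 20 bases for Rnf43 and Znrf3. Longer stretches with mismatches were not searched over the whole transcripts, and whether reads were mistaken between these genes was not tested.

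None of the 10 genes passed the test between genotypes. With limma and a Benjamini-Hochberg adjustment over 16368 genes, called at 0.05, 577 genes or 3.53% were called, of which 479 (2.93%) were higher and 98 (0.599%) lower in ILK-K5. The members gave 0 calls of 10, and 1 of 10 (Nkd1) had an unadjusted p-value under 0.05, as did 2011 of the 16368 genes. Neither edgeR nor DESeq2 on the recovered reads called any of the 10. The 3 ILK-K5 libraries lay wholly above or below the 3 control libraries for 3 members (Lef1 and Tcf7l1 above, Nkd1 below), where 17.9% of all tested genes were separated in this way. Log2 fold changes, given throughout as ILK-K5 minus control on the scale of log2 of the normalized count plus 1, were above 0 for 7 members and below 0 for 3, with a median of 0.16 against 0.01 over all genes tested. Where single values are listed, they stand for libraries 1, 2 and 3 of a group in that order. For 5 members (Tcf7l1, Tcf7l2, Axin2, Rnf43 and Znrf3) the 95% interval lay within a 2-fold change either way.

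**Figure D1:**
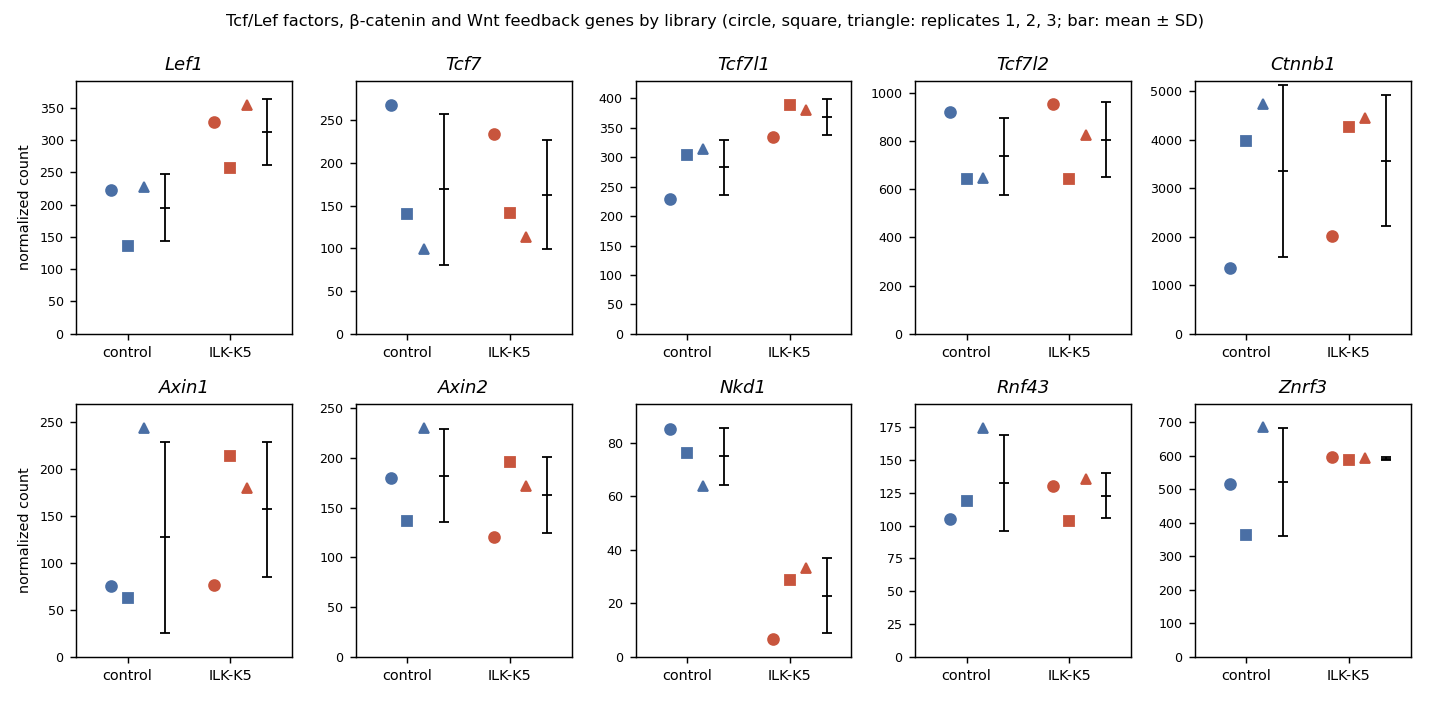
Normalized counts (y axis, linear and starting at 0, with its own scale for each gene) of the 10 genes in the 3 control and 3 ILK-K5 libraries. Symbols mark replicates 1, 2 and 3 and the black bar the mean ± SD of a group; the groups are apart for Lef1, Tcf7l1 and Nkd1 and overlap for the other 7 genes.

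Depth was between 8228019 and 11969072 reads on genes per library, and 1 read stood for 0.726 to 1.52 normalized counts. Mitochondrially encoded genes took 11.5% to 27.6% of the reads. Ilk itself (chromosome 7, 105736592 to 105742925) had 10.6, 16.7 and 38.5 normalized counts in control and 14.8, 30.9 and 29.2 in ILK-K5 libraries, and its change was 0.30 (95% interval -1.15 to 1.75, limma adjusted p = 0.933). As 89.7% of the exon bases of Ilk lie also in exons of other genes (Taf10 and Rrp8), its count does not check the genotypes. Among 7 bulge SC markers, Cd34, on which the cells were sorted, was lower in ILK-K5 (log2 fold change -1.90, limma adjusted p = 0.0239), and the other 6 were not called. Krt15 had a log2 fold change of -1.16 with overlap, Nfatc1 of -0.60 with each ILK-K5 library below each control library, and Sox9 (0.26), Lhx2 (-0.10), Tbx1 (0.02) and Itga6 (0.36) overlapped. All 6 macrophage markers were called higher, and their summed level was 83.6 to 113 normalized counts in control and 7463 to 9997 in ILK-K5 libraries. Fibroblast markers summed to 703 to 779 and 1532 to 2493, with Col3a1 called higher and Lum at 0 in each control library. Col1a1 (0.85) and Col1a2 (0.86) were separated higher but not called, and Dcn (0.61) overlapped. Pdgfra, not tested, had 12.5, 1.52 and 5.80 normalized counts in control and 12.5, 2.31 and 9.74 in ILK-K5 libraries. Melanocyte markers summed to 680 to 1308 and 269 to 478, most of it Mitf (1136, 868 and 596 against 258, 192 and 254), which was called lower, whereas 3 of the 5 tested were above 0 and Tyrp1 was separated higher (2.89, 0 and 5.08 against 34.2, 11.6 and 48.7). The sums for basal keratinocytes, dermal papilla and endothelium overlapped between the groups. Of the dermal papilla genes, Hhip was separated lower (71.4, 66.9 and 13.1 against 5.69, 6.94 and 7.79, limma adjusted p = 0.159). Rspo3, not tested, had 7.72, 3.04 and 27.6 against 0, 0 and 0.974. Crabp1 had a log2 fold change of 1.42 with overlap, and Sox2 was at 0 in all 6 libraries. Of the endothelial genes, Tek was separated lower (-2.02, limma adjusted p = 0.144) and Pecam1 had 0.68 with overlap. Macrophage and fibroblast sums, and the T cell sum given below, were thus higher in the ILK-K5 libraries in which the members were compared. The melanocyte sum, most of it Mitf, was lower there. The part of these cell types in the members' values was not tested. In such bulk samples, fewer cells of a type and less RNA per cell cannot be told apart.

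Lef1 (chromosome 3, plus strand, 131110471 to 131224356), the Tcf/Lef factor with the widest gap between genotypes, had 221.9, 135.3 and 227.8 normalized counts in control libraries. In ILK-K5 libraries it had 327.9, 256.1 and 354.6. Each ILK-K5 library stood above each control library, although the lowest ILK-K5 and the highest control library were close. The log2 fold change was 0.70 (95% interval -0.01 to 1.42), a 1.63-fold higher level, with a limma adjusted p of 0.422 over all genes. Without control library 2, the lowest of the 6, it was 0.46. An antisense gene, Gm43352, overlaps 13.7% of the Lef1 exon bases and has no value in the table, and the sources used here do not state whether counting kept the strands apart.

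Lef1 is also made by T cells and by hair matrix cells, and the marker lists of both were therefore set beside it. T cell markers (10 genes, 5 with enough reads to be tested) summed to 134 to 165 normalized counts in control and 221 to 303 in ILK-K5 libraries. Cd2, a surface receptor of T cells, was called higher (0, 0 and 2.18 in control against 47.8, 48.6 and 37.0 in ILK-K5, limma adjusted p = 0.00968). Cd3g, a chain of the T cell receptor complex, had 4.82, 6.08 and 15.96 against 42.1, 30.9 and 61.4 and was not called (limma adjusted p = 0.102), Cd3d overlapped between the genotypes, and the kinase Zap70 was at 0 in each control library and at 0, 6.17 and 2.92 in ILK-K5. The 7 hair matrix markers found summed to 561 to 1327 and 578 to 781, and Dlx3, a homeobox factor of the hair matrix, was lower in ILK-K5 (-2.13, limma adjusted p = 0.0333). Msx2 had a log2 fold change of -1.11 and Foxn1 of -0.15, both with overlap. The keratin Krt35, not tested, had 16.4, 15.2 and 5.80 normalized counts in control against 4.55, 0.771 and 1.95 in ILK-K5 libraries. In the other direction, the hair sheath keratin Krt71 had 0, 0 and 9.43 against 18.2, 17.0 and 25.3 (3.26, limma adjusted p = 0.191), Hoxc13 had a log2 fold change of 0.48 with overlap, and the signal Shh, not tested, was at 0 in each control library and at 14.8, 0.771 and 5.84 in ILK-K5. The T cell sum thus separated the genotypes in the same direction as Lef1 and the matrix sum overlapped, and the part of either in the Lef1 value was not tested.

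By a fixed rule, the genes with the library pattern most like that of Lef1 were named. Among 11067 genes averaging at least 50 normalized counts, the smallest root mean square difference of centred log2 values over the 6 libraries was 0.0839 for Tnik, followed by 0.125 for Wdfy3 and 0.133 for Arih2, against a median of 0.650. Tnik encodes a kinase known to bind Tcf7l2. It had 206.5, 121.6 and 198.8 normalized counts in control and 319.9, 225.2 and 286.4 in ILK-K5 libraries (log2 fold change 0.68, limma adjusted p = 0.468).

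Tcf7l1 (chromosome 6, minus strand, 72626378 to 72789254), the repressive factor of the bulge, had 229.6, 304.1 and 314.2 normalized counts in control and 333.6, 389.5 and 380.9 in ILK-K5 libraries. The libraries did not overlap, yet the gap between the highest control and the lowest ILK-K5 library was small beside the range within the control group. Its log2 fold change was 0.39 (95% interval -0.22 to 0.997, limma adjusted p = 0.707). Without control library 1 it was 0.25.

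Tcf7 (chromosome 11, minus strand, 52252371 to 52283014; also called Tcf1) had 268.2, 139.9 and 99.4 normalized counts in control and 234.5, 141.1 and 113.0 in ILK-K5 libraries. The groups overlapped throughout, and library 1 was the highest of each group. The log2 fold change was 0.00 (95% interval -1.002 to 1.004, limma adjusted p = 0.9996). It was -0.10 after quantile normalization, where the median of all genes was -0.08, and -0.09 in DESeq2, where that median was -0.06. Tcf7 is made by T cells too, and the part of T cell RNA in its value was not tested.

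Tcf7l2 (chromosome 19, plus strand, 55741820 to 55933654; also called Tcf4) had 920.4, 641.7 and 646.5 normalized counts in control and 951.8, 640.9 and 823.1 in ILK-K5 libraries, and library 1 was again the highest of each group. ILK-K5 minus control gave a log2 fold change of 0.13 (95% interval -0.49 to 0.76, limma adjusted p = 0.932), which was 0.0016 without ILK-K5 library 1 and 0.30 without control library 1.

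Per length, as FPKM (fragments scaled by gene length and library size), the 4 factors can be set against each other. In control libraries the mean FPKM was 8.64 ± 1.87 (SD, n = 3) for Tcf7l2, 7.39 ± 1.21 for Tcf7l1, 6.61 ± 3.44 for Tcf7 and 2.31 ± 0.614 for Lef1. In ILK-K5 libraries it was 9.45 ± 1.83, 9.62 ± 0.787, 6.36 ± 2.49 and 3.71 ± 0.604 (SD, n = 3) in the same order. By FPKM, Lef1 was the least abundant of the 4 in each of the 6 libraries, and Tcf7 came nearest to it in library 3 of either genotype (3.88 against 2.70 in control, 4.41 against 4.201 in ILK-K5). This rank depends on the scaling by length. By normalized counts Lef1 was above Tcf7 in control library 3 and in each ILK-K5 library.

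Of the summed FPKM of the 4 factors, Lef1 made up 8.79%, 7.11% and 12.1% in control and 11.8%, 11.6% and 14.9% in ILK-K5 libraries. Control library 3 thus lay within the ILK-K5 range, and the means were 9.32% and 12.7% (exact two-sided permutation test, p = 0.3, adjusted over the 4 shares p = 0.6). The means in control and ILK-K5 were 25.5% and 21.5% for Tcf7, 30.7% and 33.5% for Tcf7l1 and 34.5% and 32.3% for Tcf7l2, each with overlapping libraries (exact permutation p = 0.6 for each). The difference for Tcf7l2, -2.21 percentage points, was -0.404 without ILK-K5 library 2. With 3 libraries against 3, the smallest p-value that this test can give is 0.1. A share does not depend on the library's size factor but does depend on the weighting by length. From normalized counts in place of FPKM, the Lef1 share differed by 4.86 percentage points against 3.42 from FPKM (exact permutation p = 0.1).

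**Figure D2:**
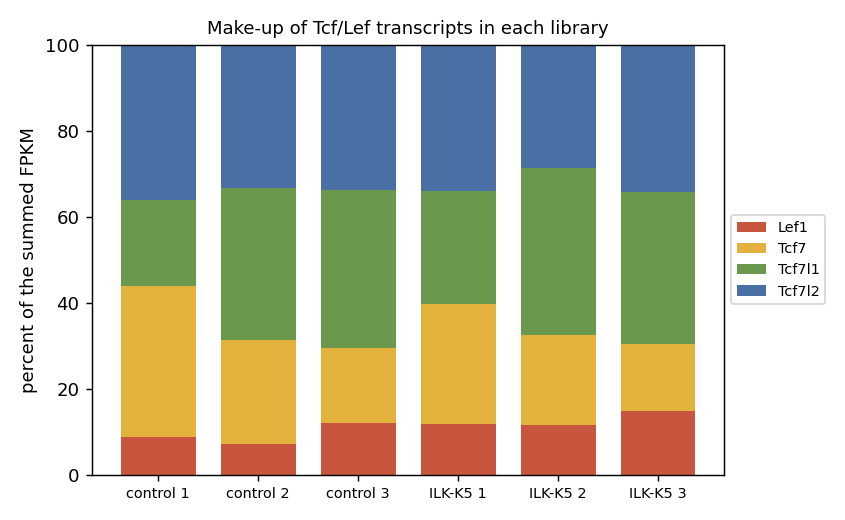
Share of each Tcf/Lef factor in the summed FPKM of the 4 (y axis, percent) in each of the 6 libraries (x axis). Lef1, at the foot of each bar, takes between 7.11% and 14.9%, and Tcf7 takes its largest share, 35.03% and 27.8%, in library 1 of each genotype.

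Ctnnb1 (chromosome 9, plus strand, 120929216 to 120960507) encodes β-catenin, which also links cadherins to the cytoskeleton at cell junctions. It had 1353, 3970 and 4736 normalized counts in control and 2011, 4261 and 4445 in ILK-K5 libraries. Library 1 was far below the other libraries in each genotype, and the groups overlapped. A log2 fold change of 0.19 resulted (95% interval -0.94 to 1.33, limma adjusted p = 0.944). It was 0.01 with replicates 2 and 3 only and -0.37 without control library 1. Exons of Ulk4 on the opposite strand share 14.6% of the Ctnnb1 exon bases. Ulk4 had 344, 187 and 197 reads in control and 225, 236 and 141 in ILK-K5 libraries. Ctnnb1 had 1402, 2611 and 6527 reads in control and 1766, 5525 and 4563 in ILK-K5 libraries. The part of the shared bases in the Ctnnb1 value was not tested. At a mean of 67.4 ± 35.7 FPKM in control and 71.8 ± 27.3 in ILK-K5 (SD, n = 3), Ctnnb1 stood above each other member in all 6 libraries.

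The separation of library 1 from the others was not peculiar to these genes. The description labels give the control and ILK-K5 libraries of a replicate the same number, which no other replicate has, without saying what it means. Both libraries of replicate 1 lay outside the range of the other 4 for 33.8% of all tested genes. Among the members this held for 3 of 10: Tcf7 and Tcf7l2, which were highest there, and Ctnnb1, which was lowest. In controls, library 1 differed from the mean of libraries 2 and 3 by 1.18 on the log2 scale for Tcf7, 0.51 for Tcf7l2 and -1.68 for Ctnnb1. In ILK-K5 the corresponding differences were 0.89, 0.39 and -1.11. For these 3 genes each of these differences was wider than that between genotypes. Replicate 1 has 1 library per genotype and gives no test of its own; with replicates 2 and 3 only, the log2 fold changes were 0.78 for Lef1, 0.32 for Tcf7l1 and -1.15 for Nkd1.

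Nkd1 (chromosome 8, plus strand, 88521354 to 88594884), which encodes an antagonist that binds Dishevelled, differed most. It had 84.9, 76.0 and 63.9 normalized counts in control and 6.83, 28.5 and 33.1 in ILK-K5 libraries, from 88, 50 and 88 reads and 6, 37 and 34 reads. All ILK-K5 libraries were below all control libraries, and ILK-K5 library 1 was well below the other two. The log2 fold change was -1.92 (95% interval -3.31 to -0.53), a 3.79-fold lower level, with a limma adjusted p of 0.178 over all genes. Without ILK-K5 library 1 it was -1.25 and the limma adjusted p was 0.319. Over the other alternatives tried the adjusted p stayed above 0.05, with a lowest value of 0.0573 in limma with a term for replicate 1.

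Axin2 (chromosome 11, plus strand, 108920349 to 108950783), a scaffold of the destruction complex and a widely used Wnt target, had 179.5, 136.9 and 230.0 normalized counts in control and 120.7, 195.9 and 171.4 in ILK-K5 libraries. The groups overlapped almost fully. Axin2 had a log2 fold change of -0.16 (95% interval -0.93 to 0.61, limma adjusted p = 0.933), and with replicates 2 and 3 only it was 0.05. An interval of this width does not reach a 2-fold change in either direction.

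Axin1 (chromosome 17, plus strand, 26138688 to 26195811), the constitutive scaffold, had 75.3, 62.3 and 243.8 normalized counts in control and 76.3, 214.4 and 180.2 in ILK-K5 libraries. Control library 3 was the highest and control library 2 the lowest of all 6. Its log2 fold change of 0.45 had a 95% interval from -0.87 to 1.77 (limma adjusted p = 0.880). It was 1.06 without control library 3 and 0.08 without control library 2, and its interval takes in a 2-fold higher level.

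The counts of both E3 ligases overlapped between the genotypes. Rnf43 (chromosome 11, plus strand, 87662722 to 87735539) had 105.2, 118.6 and 174.1 normalized counts in control and 129.8, 103.3 and 135.4 in ILK-K5 libraries, with a log2 fold change of -0.09 (95% interval -0.85 to 0.68, limma adjusted p = 0.966). Znrf3 (chromosome 11, minus strand, 5276324 to 5444847) had 516.2, 364.9 and 685.0 in control and 595.4, 587.7 and 592.2 in ILK-K5 libraries. The 3 ILK-K5 libraries were nearly equal and lay inside the control range. The log2 fold change of Znrf3 was 0.23 (95% interval -0.43 to 0.88, limma adjusted p = 0.877).

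**Figure D3:**
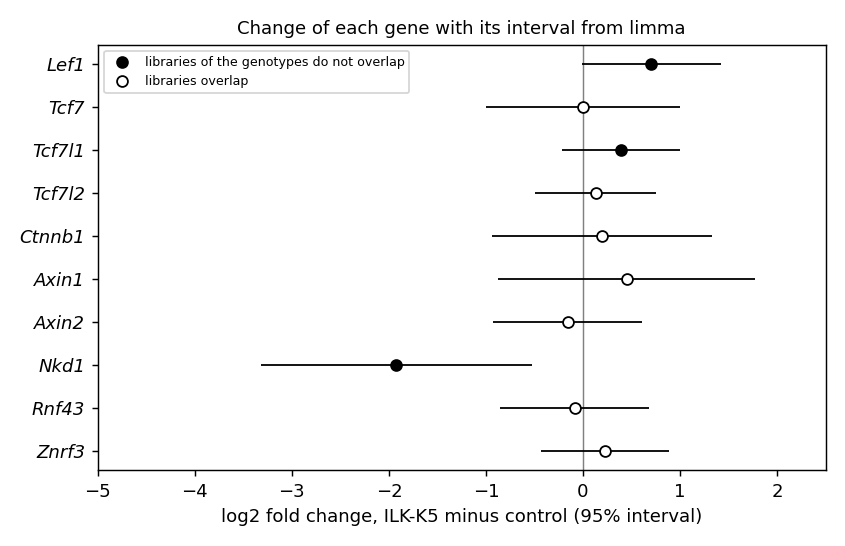
Log2 fold change of each gene, ILK-K5 minus control, with its 95% interval from limma (x axis) for the 10 genes (y axis). Filled points mark the 3 genes whose libraries do not overlap; Nkd1, at -1.92, has the only interval that leaves out 0.

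By FPKM, the order of the 10 genes in control libraries was Ctnnb1 (67.4), Tcf7l2 (8.64), Tcf7l1 (7.39), Znrf3 (6.78), Tcf7 (6.61), Axin1 (3.41), Axin2 (3.39), Lef1 (2.31), Rnf43 (2.07) and Nkd1 (1.72), as means of 3 libraries. Only Ctnnb1 was clear of its neighbour, and each other gene overlapped the next in the order. In ILK-K5 libraries the order was Ctnnb1 (71.8), Tcf7l1 (9.62), Tcf7l2 (9.45), Znrf3 (7.69), Tcf7 (6.36), Axin1 (4.205), Lef1 (3.71), Axin2 (3.03), Rnf43 (1.92) and Nkd1 (0.525). There Ctnnb1 was separate from Tcf7l1, Axin2 from Rnf43 and Rnf43 from Nkd1, while the remaining neighbours overlapped. Lef1 and Axin2 exchanged their places between the groups, as did Tcf7l1 and Tcf7l2, and the ranges of each pair overlapped in either group.

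Ratios within a library compared pairs of members directly. The log2 ratio of Lef1 to Axin2 in FPKM was -0.35, -0.67 and -0.67 in control and 0.79, -0.27 and 0.40 in ILK-K5 libraries. All ILK-K5 libraries were above all control libraries. The means differed by 0.87 (exact two-sided permutation test, p = 0.1, the smallest that 3 against 3 can give, and p = 0.3 adjusted over the 3 ratios). The ratio of the activating Lef1 to the repressive Tcf7l1 had means of -1.70 and -1.39, a difference of 0.32 with overlapping libraries (exact permutation p = 0.6, adjusted p = 0.7), which was 0.012 without control library 2 and 0.57 without control library 1. For Tcf7l2 to Tcf7l1 the means were 0.22 and -0.04, a difference of -0.26 (exact permutation p = 0.7, adjusted p = 0.7).

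**Figure D4:**
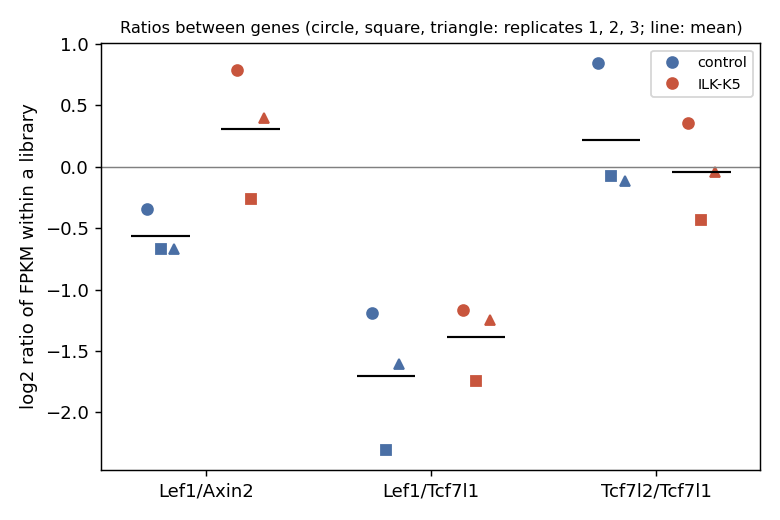
Log2 ratio of FPKM within each library (y axis) for 3 pairs of genes (x axis), with replicates 1, 2 and 3 as circle, square and triangle and the group mean as a line. Lef1/Axin2 lies between -0.67 and -0.35 in control and between -0.27 and 0.79 in ILK-K5 libraries, and the other pairs overlap.

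The rest of the pathway was described with 5 lists of 49 genes, of which 44 were tested. Of these, 1 was called higher (2.27% against 2.93% of all genes) and 0 lower, with 6 at an unadjusted p-value under 0.05 (2011 of 16368 over all genes). DESeq2 called 2 higher and 1 lower, and edgeR called 0. The log2 fold changes were split evenly, 22 above and 22 below 0, with a median of -0.01. Libraries were separated for 10 of the 44 genes (22.7% against 17.9% of all genes), 5 in each direction, where over all genes 1791 were separated higher and 1138 lower.

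None of the 10 tested genes of the destruction complex and β-catenin turnover was called or separated, and their median log2 fold change was 0.07, which ran from -0.09 without control library 2 to 0.30 without ILK-K5 library 1. The largest differences were 0.63 for Btrc, an F-box protein that recognises phosphorylated β-catenin, 0.43 for the tankyrase Tnks2 and 0.41 for Tnks, which destabilise Axin.

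Among the 8 receptors and Dishevelled genes the median was -0.07, or -0.26 without control library 3, with 0 calls. Lgr6, an R-spondin receptor of epidermal SCs, had 3439, 2678 and 2293 normalized counts in control and 1828, 1466 and 1584 in ILK-K5 libraries, wholly apart, with a log2 fold change of -0.77 (limma adjusted p = 0.211). The Wnt co-receptor Lrp5 was separated too (-0.40, limma adjusted p = 0.690), and Lgr4, another R-spondin receptor, had -0.35 with overlap. R-spondin receptors are those through which Rnf43 and Znrf3 are removed from the membrane.

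The co-activators that β-catenin recruits at Tcf/Lef factors had a list median of 0.30, with 6 of 7 above 0 and 0 called, and of 0.19 without control library 2. The PHD finger protein Pygo2 had 42.5, 38.0 and 69.7 normalized counts in control and 94.5, 91.8 and 84.7 in ILK-K5 libraries (0.89, limma adjusted p = 0.411), and its paralogue Pygo1 differed in the other direction (-0.62, limma adjusted p = 0.484). The libraries of both genes were separated. Bcl9l, the adaptor between β-catenin and Pygo proteins, had 0.49 with wide overlap.

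Co-repressors and β-catenin antagonists had a median of 0.03 and 0 calls of 10, and the median ran from -0.08 without ILK-K5 library 3 to 0.23 without ILK-K5 library 1. Of the Groucho/TLE proteins, which silence Tcf/Lef targets in the absence of β-catenin, Tle3 had a log2 fold change of 0.92 and Tle1 of 0.71 (limma adjusted p = 0.353 for each), whereas Tle4 had -0.44 (limma adjusted p = 0.668). Libraries were separated for Tle1 and Tle4, and for Tle3 they overlapped.

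Of the 15 other Wnt target genes 10 were tested, and their median was -0.20. The hyaluronan receptor Cd44 was higher in ILK-K5 (2892, 2919 and 2125 against 6366, 6540 and 5508 normalized counts, log2 fold change 1.23, limma adjusted p = 0.0370), but its call was lost when any 1 of the 6 libraries was left out, with limma adjusted p-values from 0.0562 to 0.187 and log2 fold changes from 1.07 to 1.30 in these smaller sets. Macrophage and T cell marker sums were higher in the same ILK-K5 libraries, and their part in the Cd44 value was not tested. Krt17, a keratin of follicle and wounded epidermis, had 492, 899 and 1284 against 1463, 5648 and 3675 (1.91, limma adjusted p = 0.0930). The cell cycle gene Ccnd1 had 1779, 1177 and 1181 against 684, 751 and 582 (-1.01, limma adjusted p = 0.0899). Both were called by DESeq2 and by limma with a term for replicate 1, and Krt17 also with replicates 2 and 3 only. Apcdd1, an inhibitor at the cell surface, had -0.94 with overlap (limma adjusted p = 0.684). Notum, Sp5, Dkk4, Edar and Shh had too few reads to be tested; Sp5 and Dkk4 were at 0 in all 6 libraries. Lgr5, a SC receptor of R-spondin that is also in the receptor list, had 5528, 3090 and 1937 against 5413, 1893 and 2937 (-0.05, limma adjusted p = 0.988), with overlap. Lgr5 is named because the study measured Cd44, Krt17, Lgr5 and Lef1 by RT-qPCR in separate samples. The paper reports each of these genes as increased in ILK-deficient bulge SCs by that method. The RT-qPCR used independently isolated cells but was done to check the RNA-seq examined here. The samples were thus separate, while the choice of genes was not shown to be independent of these data.

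**Figure D5:**
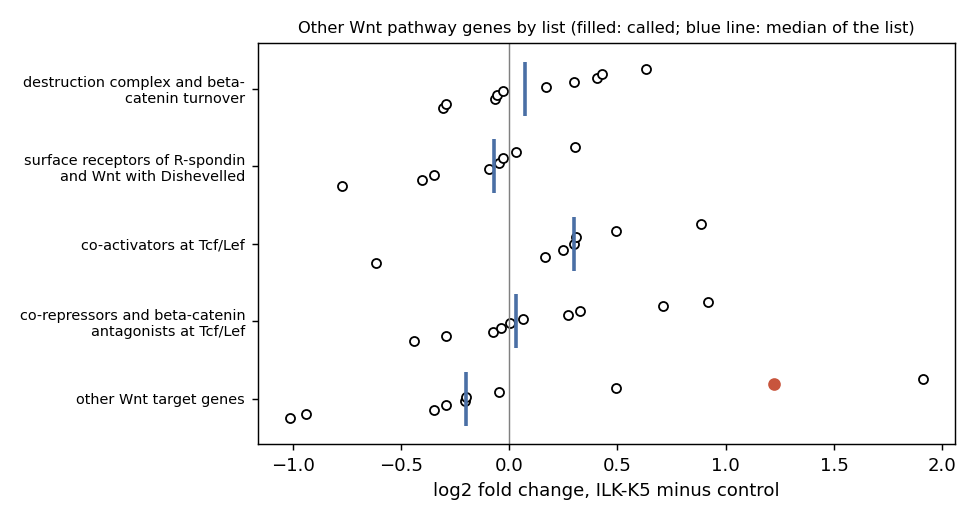
Log2 fold change, ILK-K5 minus control (x axis), of each tested gene in the 5 pathway lists (y axis), with the list median as a blue line; Lgr5 stands in 2 lists. Only Cd44 (filled, 1.23) is called, and list medians run from -0.20 to 0.30.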

How the data were processed

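Sorted bulge SCs of 3 control and 3 ILK-K5 samples were profiled by RNA-seq (TRIzol LS, Ovation RNA-Seq System V2, Nextera XT). Adapters were trimmed with flexbar and ribosomal RNA reads removed. Per the labels, the processing tools were Bowtie, TopHat2 2.0.14, Bowtie2 2.2.4 and DESeq2 1.6.3 with GRCm38. The counting program and its use of strand are not given in the sources used here. The authors deposited a signal table of normalized counts. All values (100%, tolerance 0.01) were whole multiples of 1 value per library, so the reads could be recovered. The deposited FPKM equal these counts times 1 constant per gene. Columns of the authors' own comparison (mean, fold change, standard error, test statistic, p-values) were not used.

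Of 43274 genes, 42107 (97.3%) had a symbol in the gene table, and coordinates came from GENCODE M21. Genotypes were compared on log2(normalized count + 1) with limma 3.58.1 (lmFit, eBayes with trend; R 4.3.3), two-sided, over 16368 genes with a mean of at least 10, with Benjamini-Hochberg adjustment and calls at 0.05. Shares and ratios were tested by exact permutation in scipy 1.17.1. Alternatives were edgeR 4.0.16 (422 higher and 87 lower genes) and DESeq2 1.42.0 on recovered reads, pseudocounts of 0.1 and 5, no filter, a mean of at least 50, quantile and TMM scaling, the FPKM table, a replicate block, a term for replicate 1, replicates 2 and 3 only, and leaving out each library. On simulated data of 16368 genes for the same comparison, limma called 30% of 4-fold and 100% of 16-fold changes. DESeq2 called 61% of 4-fold changes there, but 13.9% of its calls were false, against 4.41% for limma. The simulation used a spread common to all genes and no replicate pattern, so its rates do not carry over to single members. The members, lists, tests and naming rule were chosen with earlier results of these data known. Named were all members, each called pathway gene, up to 3 uncalled genes per list with the largest change, markers, and the 3 genes most like Lef1.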

Additional observations from a re-analysis of the deposited data

How the results depend on the processing

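None of the 10 genes was called under any of the 12 alternatives or in the 6 fits that left out 1 library. Lef1, Tcf7l1, Tcf7l2, Axin1 and Nkd1 kept their direction in every fit that tested them. Nkd1 was not tested in the fit with a mean of at least 50. The replicate block, the term for replicate 1, no filter and a mean of at least 50 leave each log2 fold change as in the main fit. Direction could therefore not change in these fits. The FPKM table differs from the main fit only in the weight of the pseudocount. Tcf7 changed sign to -0.085 with DESeq2, -0.056 with edgeR, -0.0018 with TMM scaling, -0.00033 with a pseudocount of 5 and -0.10 with quantile normalization, and Axin2 to 0.046 with replicates 2 and 3 only. Leaving out 1 library gave log2 fold changes from -0.32 to 0.39 for Tcf7, -0.37 to 0.57 for Ctnnb1, -0.35 to 0.041 for Axin2, -0.23 to 0.13 for Rnf43, 0.0016 to 0.30 for Tcf7l2, -0.0069 to 0.45 for Znrf3 and list medians from -0.26 to -0.077 for the receptors, -0.095 to 0.30 for the destruction complex, -0.076 to 0.23 for the co-repressors and 0.19 to 0.35 for the co-activators. It gave differences in share from -8.15 to 0.693 percentage points for Tcf7 and from -2.47 to 6.35 for Tcf7l1, and log2 ratios that differed by -0.46 to 0.055 for Tcf7l2 to Tcf7l1 and 0.012 to 0.57 for Lef1 to Tcf7l1. Over all genes, leaving out 1 library gave 222 to 559 higher and 32 to 98 lower calls. Calls numbered 772 higher and 280 lower with DESeq2, and 846 and 286 with a term for replicate 1. Of the pathway genes, DESeq2 and the term for replicate 1 each called 2 higher (Cd44 and Krt17) and 1 lower (Ccnd1). The FPKM table, edgeR and no filter on low counts each called 0, and leaving out 1 library gave 0 to 1. The cause of these shifts was not tested. With no filter, the median over all genes tested moved from 0.01 to -0.10, and it was -0.08 after quantile normalization.

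Libraries that share a replicate number share a number in the description labels too. Their deviations from the group means correlated at 0.529 for number 1, 0.0198 for number 2 and 0.307 for number 3. Control libraries 2 and 3 correlated best with ILK-K5 libraries 3 and 2 (0.0738 and 0.498). The numbers were not taken as pairs in the main fit. Whether libraries of the same number came from littermates is not stated. With the replicate block, 848 genes were called higher and 269 lower, among them 2 higher (Cd44 and Krt17) and 1 lower (Ccnd1) pathway genes, and none of the 10 members. The lowest adjusted p of the members with the block in limma was 0.0670, for Nkd1. For Lef1 the limma adjusted p was 0.170 with the block and 0.422 without it. At 3 libraries per group, limma called 30% of 4-fold changes in the simulation. That rate came from a spread common to all genes and not from the members' own spread. A missing call alone does not show equal levels.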
